A study of Mus musculus with 42 samples.

Results

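The Hox genes encode homeobox transcription factors that lie in 4 clusters, and they were examined here in the heart field, which holds the progenitors of the heart. The set was chosen by name alone and holds every protein-coding gene whose GENCODE symbol is Hox, a cluster letter and a paralogue number, which gave 39 of the 56953 genes in the table of counts. RNA was sequenced from both sides of the heart field of 21 mouse embryos at E8.5i, left and right apart, giving 42 libraries on a C57Bl6J background. There were 5 wild-type embryos (Ccdc40+/+, 4 males and 1 female), 11 homozygous Ccdc40lnks/lnks mutants whose heart loop was rightward (6 males and 5 females) and 5 homozygous Ccdc40lnks/lnks mutants whose heart loop was inverted (3 males and 2 females). Ccdc40 encodes a part of motile cilia, and lnks is a point mutation carried by every mutant in all cells. The piece dissected reached caudally to the second somite, was freed of head and dorsal tissue and held no heart tube, and each library is one side of it. The groups are the labelled direction of looping. The study's own classes, which part the rightward mutants into situs solitus (5) and heterotaxy (6), were built from expression and were not used here. The rightward mutants therefore mix both, and the labels do not tell which embryo is which.

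Hox genes pattern the body along its axis, and the order of the genes in a cluster mirrors the order of their expression. Paralogues with low numbers begin early and reach far rostrally, whereas those with high numbers are restricted to the trunk, the tail and the limb buds. Retinoic acid, Cdx factors and the TALE cofactors Pbx and Meis act with this system, and in the second heart field Hoxb1 and Hoxa3 mark the posterior progenitors that add to the venous pole and the outflow tract. The highest paralogue number still detected in a library is given for each cluster, as a description.

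The libraries held 36073684 to 62970327 counts. Ccdc40 ranged from 15.2 to 26.5 CPM (counts scaled to the size of the library) in the wild-type libraries and from 8.83 to 14.8 CPM in the mutant libraries, which did not overlap. A few libraries stood apart. Both sides of the rightward mutant 15_5 carried high levels of 5' Hox genes. The right side of the rightward mutant 2_2 was low in HoxB genes and held 0.352 CPM of Tbx5, a factor of the posterior heart field that was between 5.78 and 111 CPM in all other libraries. The lowest of those, 5.78 CPM, was the left side of 2_2, beside a median of 65.5 CPM over the libraries other than 15_5. The heart field was otherwise found by its markers: the posterior second heart field list (10 genes) summed to between 182 and 943 CPM, with the lowest value in the right side of 2_2. The left side of 2_2 held 237 CPM, where the libraries other than 15_5 had a median of 698, so that both of its sides were low. These 2 embryos are named beside the results that they move.

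The start regions of the genes on which the results turn are shown first. Each is the longest stretch without exon in the bases upstream of the RefSeq start, on the gene's strand and 5' to 3', and its place in GRCm39 was found by exact match. Hoxb1 had one of the highest levels, Hoxd3 and Hoxd4 had equal fitted log2 right over left values in inverted embryos, and Hoxa10 and Hoxd10 led the 5' genes in 15_5. Capitals mark the matches of 3 motifs searched on both strands, and no 2 matches overlap in the sequences printed. The first was TGATNNAT, bound by Hox with Pbx. A further one was AGGTCA, the core of nuclear receptor sites, which include those of the retinoic acid receptors. The last was the TATA box, TATAAA. A match on the other strand shows as its reverse complement.
Hoxb1, chr11:96256334-96256577, plus strand, intergenic: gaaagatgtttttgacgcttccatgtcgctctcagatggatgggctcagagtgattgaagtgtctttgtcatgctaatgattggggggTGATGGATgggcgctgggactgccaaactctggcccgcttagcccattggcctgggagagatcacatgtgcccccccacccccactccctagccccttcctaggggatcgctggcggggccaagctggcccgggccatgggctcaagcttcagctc
Hoxd3, chr2:74542087-74542270, plus strand, within Hoxd3os1: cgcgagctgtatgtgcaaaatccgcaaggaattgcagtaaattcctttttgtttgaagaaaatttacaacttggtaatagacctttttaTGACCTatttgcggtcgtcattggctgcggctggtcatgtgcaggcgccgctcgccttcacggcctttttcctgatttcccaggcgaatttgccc
Hoxd4, chr2:74552072-74552321, plus strand, intronic in Hoxd3 and Hoxd4: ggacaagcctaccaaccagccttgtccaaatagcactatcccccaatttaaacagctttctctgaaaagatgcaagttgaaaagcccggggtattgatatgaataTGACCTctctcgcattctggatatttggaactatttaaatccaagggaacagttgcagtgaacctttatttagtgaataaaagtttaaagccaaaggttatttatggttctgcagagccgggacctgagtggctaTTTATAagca
Hoxa10, chr6:52217835-52218084, minus strand, intergenic: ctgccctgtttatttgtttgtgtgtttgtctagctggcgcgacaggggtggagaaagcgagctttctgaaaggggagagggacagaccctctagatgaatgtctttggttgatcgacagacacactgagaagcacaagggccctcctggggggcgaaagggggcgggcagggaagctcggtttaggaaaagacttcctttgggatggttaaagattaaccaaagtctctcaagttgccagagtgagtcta
Hoxd10, chr2:74522119-74522229, plus strand, within Gm28309 and Gm74919: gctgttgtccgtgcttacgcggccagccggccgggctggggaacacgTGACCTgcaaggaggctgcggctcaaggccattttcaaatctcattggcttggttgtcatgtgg
Of 32851 RefSeq start regions (the 250 bases before each start, GRCm38.p6), 14% held AGGTCA, 7.68% held TGATNNAT and 12.4% held TATAAA. Of the 22 Hox genes with an entry, 6 held AGGTCA (Hoxb4, Hoxc4, Hoxd3, Hoxd4, Hoxd8 and Hoxd10), 4 held TGATNNAT (Hoxa2, Hoxb1, Hoxb8 and Hoxd11) and 4 held TATAAA. These matches describe letters only.

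Levels fell along the clusters. Compared per kilobase of exon (CPM per kb, mean ± SD over 21 embryos), Hoxb1 stood at 39.4 ± 6.33. It is one of the earliest Hox genes to be expressed, and it also marks rhombomere 4 of the hindbrain. The paralogue groups, summed per kb, were at 11.4 ± 2.00 for group 2 and 2.89 ± 1.33 for group 3. The order then turned, because group 4 (7.27 ± 2.71) and group 5 (8.00 ± 2.89) were above group 3 and overlapped each other. Group 6 was at 2.67 ± 1.08, group 7 at 0.569 ± 0.282 and group 8 at 0.422 ± 0.290 CPM per kb, so that the level dropped again from Hoxb6 to Hoxb8. Groups 9, 10 and 11 had medians of 0.188, 0.446 and 0.226 CPM per kb, groups 12 and 13 were near 0, and the mean of group 10 was 2.72 ± 8.98 with and 0.766 ± 0.851 without embryo 15_5.

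**Figure D1:**
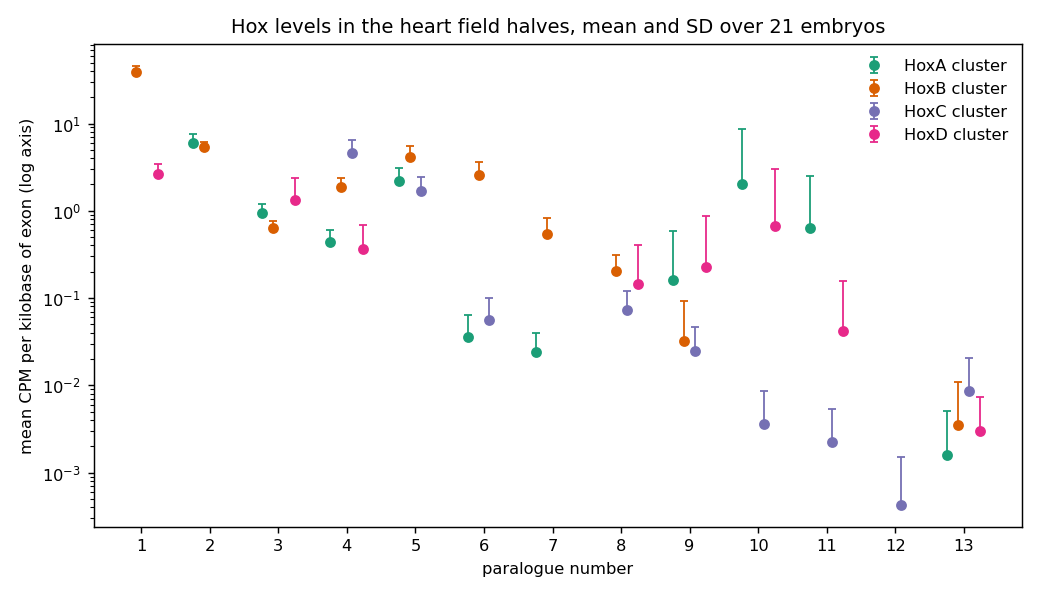
Mean level of Hox genes in CPM per kb of exon (log axis) against their paralogue number, over 21 embryos, with the upper SD as bars and 1 colour a cluster. Hoxb1 stands highest of the genes drawn, levels drop towards Hoxb8, and Hoxa10, Hoxa11 and Hoxd10 carry long bars that come from embryo 15_5, while Hoxd12, at 0 in all libraries, is not drawn.

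The member with the highest level per kb was Hoxa2, Hoxd3, Hoxc4, Hoxb5, Hoxb6, Hoxb7, Hoxb8, Hoxd9, Hoxa10, Hoxa11, Hoxc12 and Hoxc13 for paralogues 2 to 13 in turn. Hoxa2, which patterns the second branchial arch, reached 6.0 CPM per kb and Hoxb2 5.43. Hoxc4 was at 4.6 and Hoxb5 at 4.13 CPM per kb. The HoxA and HoxB clusters carried similar sums (52.3 ± 9.03 and 54.8 ± 8.79 CPM per kb), and HoxC (6.44 ± 2.67) and HoxD (5.38 ± 3.54, or 4.70 ± 1.69 without 15_5) were lower. The clusters lie at chr6:52132570-52237822 (HoxA, 11 genes), chr11:96085106-96259082 (HoxB, 10 genes), chr15:102829538-102945278 (HoxC, 9 genes) and chr2:74498654-74595486 (HoxD, 9 genes) of GRCm39. Exons of 19 members overlapped those of another gene, and the kit does not keep the strand, so that their values are uncertain. The shared part of the exon bases was largest for Hoxd4 (52.0%), Hoxb3 (51.5%, with Hoxb3os), Hoxa11 (43.6%, with the antisense Hoxa11os) and Hoxd3 (38.5%, with Hoxd4, Hoxd3os1 and Haglr). Hoxb6 (30.8%, with Hoxb5os), Hoxb2 (29.7%, with Hoxb3os), Hoxa2 (24.9%, with Hotairm1), Hoxa3 (23.7%) and Hoxa7 (20.3%) followed.

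As shares of the summed Hox level per kb, paralogues 1 to 4 took 87.6% ± 7.33, paralogues 5 to 8 took 9.70% ± 2.65 and paralogues 9 to 13 took 2.69% ± 7.55 (SD, n = 21). Without embryo 15_5 they took 89.1% ± 2.71, 9.84% ± 2.64 and 1.06% ± 0.976. Single libraries ranged from 56.5% to 97.9% for paralogues 1 to 4, with the highest share on the right of 2_2. The share of paralogues 9 to 13 had a median of 0.732% and its highest value, 36.8%, on the right of 15_5. Without members whose exons overlap, the 3 shares were 90.9%, 5.73% and 3.33%.

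The caudal limit was read from the HoxB cluster. Hoxb8 was the most caudal HoxB gene with more than 10 counts in 32 of 42 libraries, and in all 10 wild-type libraries. Among rightward mutants, the limit was Hoxb8 in 14 of 22 libraries, Hoxb7 in 4, Hoxb9 in 3 and Hoxb5 in 1, the right side of 2_2. Hoxb9 was the limit on both sides of 15_5 and on the left of 19_6, which had 11 counts of it. The rule is on raw counts, which also depend on depth. Among inverted mutants, it was Hoxb8 in 8 of 10 libraries, Hoxb7 in 1 and Hoxb6 in 1. The limit was the same on both sides in 14 of 21 embryos, further caudal on the right in 3 and on the left in 4. The other clusters gave other limits by the same rule. In HoxA the limit was Hoxa11 in 24 of 42 libraries, and it lay further caudal on the right in 6 embryos and on the left in 4 (right in 3 and left in 0 of the inverted mutants, right in 2 and left in 0 of the wild types, right in 1 and left in 4 of the rightward mutants). In HoxC it was Hoxc5 in 23 libraries, with the right further in 4 embryos and the left in 4. In HoxD it was Hoxd10 in 15 libraries, with the right further in 5 embryos and the left in 7 (right in 1 and left in 3 of the wild types, right in 4 and left in 2 of the rightward mutants, right in 0 and left in 2 of the inverted mutants). These counts have no test. The limits in HoxA and HoxD rest on Hoxa10, Hoxa11 and Hoxd10, whose levels followed those of uterine decidua genes (r of 0.94, 0.84 and 0.89 over the embryos other than 15_5), while Hoxa6 and Hoxa7 had 58 and 132 counts over all libraries. The part of decidua in these limits was not tested.

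Markers of the tail end were scarce beside these values. Msgn1, which defines the presomitic mesoderm, was at 0 in 33 of 42 libraries and at most 0.0559 CPM, and Tbx6 was between 0.112 and 0.781 CPM. Cdx4 was at 0 in 14 libraries and at most 0.266 CPM. Cdx1 (0.479 to 5.20 CPM) and Cdx2 (0.418 to 7.19 CPM), which activate trunk Hox genes, were present in every library. The 12 genes of the caudal list summed to between 8.4 and 60.9 CPM. Among them, T, a gene of the tail bud and of the notochord, was between 0.525 and 34.7 CPM, and Dll1, a Notch ligand of the presomitic mesoderm and of the neural tube, between 2.22 and 31.2 CPM.

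At the far end of the clusters, the counts were at or near the floor, which is 3 counts or 0.0476 to 0.0832 CPM at these depths and covers counting error only. Hoxd12 had no count in any library. Over all 42 libraries together, Hoxc12 had 3 counts, Hoxa13 7, Hoxc11 9, Hoxc10 13, Hoxd13 14, Hoxb13 15 and Hoxc13 37. Of the other genes of the trunk, Hoxa6 had 58 counts in all, Hoxc9 130, Hoxa7 132 and Hoxb9 160. The filter on low counts passed between 23 and 30 of the 39 members, depending on the comparison, and the genes it left out are in no test.

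Right and left did not differ detectably in the wild-type heart field. Of 25 Hox genes tested in the 5 wild types, 0 passed the threshold of adjusted p = 0.05 (edgeR, quasi-likelihood test, Benjamini-Hochberg adjusted over all genes kept, with both sides of an embryo as a block), where 0% of all genes passed. At an unadjusted p under 0.05 there were 5 members (20% of those tested), beside 2.76% of all genes. Among them, Hoxb1 (log2 right over left 0.19, SE 0.06) and Hoxc5 (0.49, SE 0.15) had positive values, and Hoxb6 (-0.44, SE 0.14) and Hoxd8 (-1.19, SE 0.48) negative ones, each with an adjusted p of 1.00 by the same test. Hoxc6 (-0.71, SE 0.57) and Hoxb8 (-0.55, SE 0.28) were also among the 5 largest values, with an unadjusted p above 0.05. DESeq2 also called none.

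Hoxc5, a cervical Hox gene, was at 5.41, 3.93, 7.57, 6.06 and 1.76 CPM on the left of wild types 7_1, 8_1, 10_1, 17_7 and 22_4. On the right it was at 6.79, 6.41, 13.4, 6.46 and 2.59 CPM. It was higher on the right in 5 of 5 embryos, although the sides overlapped between embryos, and the exact sign-flip test gave p = 0.0625, the smallest that 5 embryos allow. Hoxb1 was also higher on the right in 5 of 5, at 83.7, 109, 93.0, 91.3 and 61.0 CPM on the left and 102, 118, 94.1, 116 and 71.3 CPM on the right. Hoxb6, a gene of the trunk, ran the other way, with 5.86, 9.48, 9.50, 11.5 and 4.54 CPM on the left and 3.90, 8.42, 6.18, 10.9 and 2.72 CPM on the right. Its exons overlap those of Hoxb5os, as stated above. The sum of paralogues 1 to 4 was higher on the right in 5 of 5 wild types (mean log2 ratio 0.21 ± 0.18), that of paralogues 5 to 8 in 2 of 5 (-0.06 ± 0.24) and that of paralogues 9 to 13 in 3 of 5 (0.26 ± 1.67).

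Of the markers of other cells, the somite and paraxial mesoderm list had the median farthest from 0 in wild types (log2 right over left 0.68 over 10 genes, 0 called and 1 at an unadjusted p under 0.05). Its sum was higher on the right in 4 of 5 embryos, with log2 ratios of 0.17 in 7_1, 1.64 in 8_1, 1.04 in 10_1, -0.52 in 17_7 and 0.75 in 22_4. The medians of the other 9 marker lists lay between -0.23 and 0.44, with 0 genes called. The part of these cells in the wild-type Hox values was not tested.

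**Figure D2:**
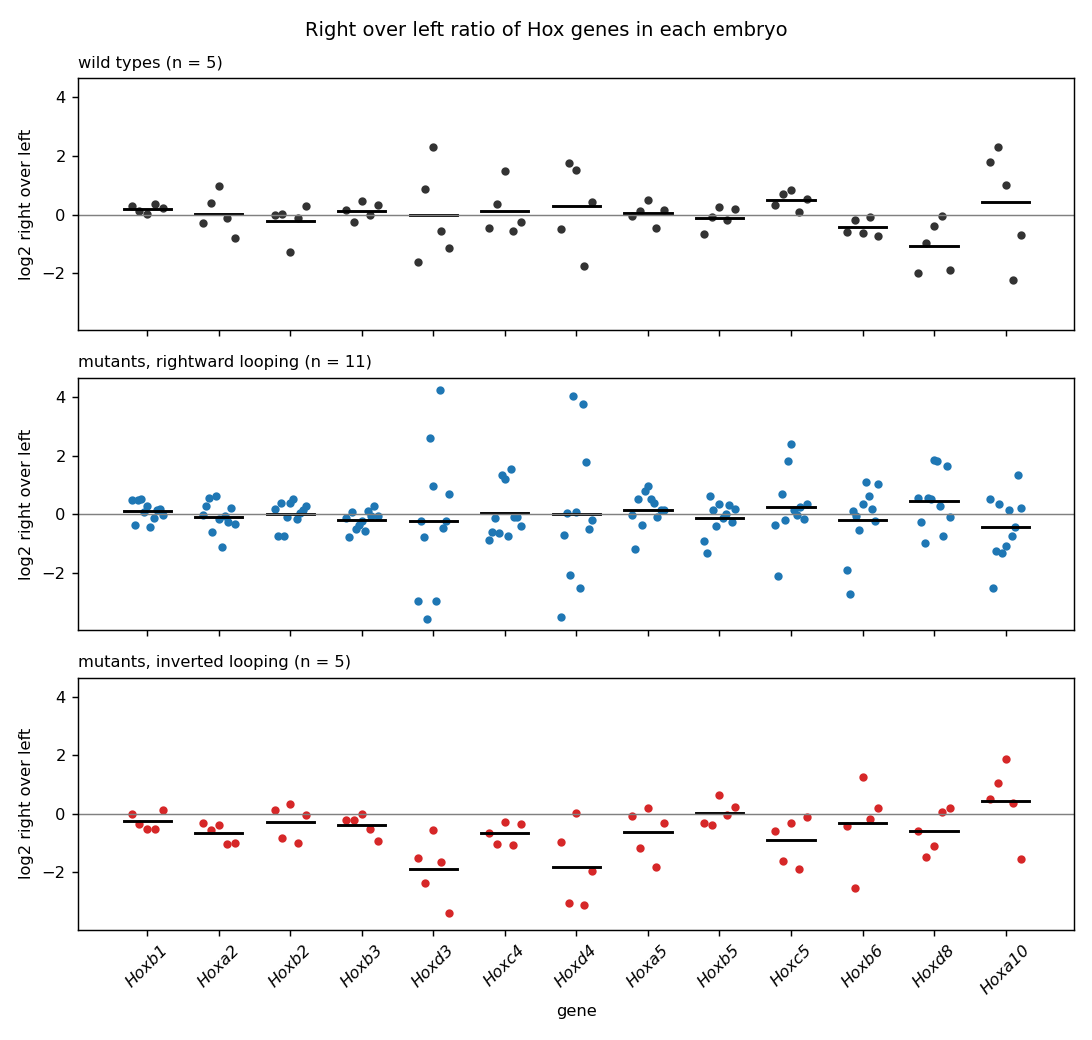
Log2 right over left for 13 Hox genes (x axis), with 1 point for each embryo and a bar for the mean, in panels for 5 wild types, 11 rightward mutants and 5 inverted mutants. In the inverted panel, the 5 points of Hoxa2, Hoxc4, Hoxc5 and Hoxd3 all lie below 0, and in the wild-type panel the 5 points of Hoxc5 and Hoxb1 lie above 0.

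In rightward mutants the sides did not differ detectably either. Of 25 Hox genes tested in 11 embryos, 0 passed (0.0263% of all genes did) and 0 had an unadjusted p under 0.05, where 3.59% of all genes had one. The largest values were those of Hoxc8 (0.66, SE 0.38), Hoxd8 (0.51, SE 0.30), Hoxa11 (-0.43, SE 0.47), Hoxb8 (0.42, SE 0.53) and Hoxa9 (0.36, SE 0.30), each with an adjusted p of 1.00. The spread between embryos was wide here. Single-embryo ratios of Hoxd3 ran from -3.57 in 15_5 to 4.26 in 19_6, and those of Hoxc5 from -2.10 in 2_2 to 2.41 in 18_1. The class sum of paralogues 5 to 8 had its lowest ratio in 2_2 (-1.60), where Hoxb5 was at 3.59 CPM on the left and 1.41 on the right and Hoxb6 at 1.26 and 0.154 CPM. The right side of 2_2 also held 262 CPM of the heart muscle list against 949 on its left, and the part of the cut in this was not tested. Over all 11 embryos no member passed an exact sign-flip test at an unadjusted p under 0.05. Without 2_2, which had the lowest ratios of Hoxa5 (-1.21) and Hoxc8 (-1.63), Hoxa5 and Hoxc8 did, both higher on the right. Without 19_6 Hoxb3, whose exons overlap Hoxb3os, passed, and without 23_3 Hoxb3 and Hoxd10 passed, both lower on the right. These sign-flip p are not adjusted for the 25 genes or for the 11 embryos left out in turn, and the share of all genes was not computed. DESeq2 called 0 members with all 11 embryos.

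In inverted mutants, Hoxd3 alone passed the test, and the Hox genes were not tested as a set. Of 23 members tested, 1 was lower on the right at an adjusted p under 0.05 (4.35% of them, beside 2.04% of all genes called and 0.318% called lower), and 7 had an unadjusted p under 0.05 (30.4%), all lower on the right, where 15.1% of all genes were under that threshold and 5.81% were under it and lower. The median log2 right over left was -0.28 over the 23 members, 17 of which were below 0, while the median of all genes was -0.0050. Paralogues 1 to 4 had a median of -0.33 (12 genes) and paralogues 5 to 8 a median of -0.36 (8 genes). The 3 genes tested of paralogues 9 to 13 had a median of 0.77.

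Hoxd3, a cervical and hindbrain gene of the HoxD cluster, was at 12.5, 16.8, 20.3, 10.1 and 33.9 CPM on the left of inverted mutants 2_7, 4_6, 10_3, 18_2 and 32_2. On the right it was at 4.34, 3.21, 13.9, 3.21 and 3.21 CPM. It was lower on the right in 5 of 5 embryos, and only the right side of 10_3 reached into the range of the left. The log2 right over left was -1.87 (SE 0.36, adjusted p = 0.042 by that edgeR test), and the exact sign-flip test gave p = 0.0625, the smallest that 5 embryos allow. The adjusted p was between 0.088 and 0.124 without 2_7, 4_6, 18_2 or 32_2 and 0.014 without 10_3, so that the call was lost without any one of those 4 embryos. The log2 values were then -1.97, -1.73, -1.93 and -1.50 in turn, in fits of fewer embryos. The adjusted p was 0.250 in the males alone, 0.269 in a fit of all 42 libraries (log2 -1.88) and 0.093 without the embryo block (log2 -1.73). Hoxd3 kept its call with DESeq2, with DESeq2's size factors and under the other filters.

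Hoxd3 also spread widely in the other groups. In wild types it was at 27.1, 2.13, 9.68, 19.4 and 2.31 CPM on the left and at 8.84, 3.99, 47.7, 13 and 1.03 CPM on the right. The highest level of all libraries was therefore the right side of wild type 10_1. In rightward mutants the lowest, median and highest values were 0.660, 3.08 and 12.8 CPM on the left and 0.653, 1.45 and 15.2 CPM on the right, and the 2 sides overlapped nearly fully. Hoxd4, which shares exon bases with Hoxd3, had the same log2 right over left in inverted mutants (-1.87, SE 0.48, adjusted p = 0.106 by the same test), from 1.21, 2.61, 0.577, 3.28 and 2.20 CPM on the left and 0.609, 0.279, 0.589, 0.336 and 0.532 CPM on the right. It was lower on the right in 4 of 5 embryos, all but 10_3.

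The next genes in inverted mutants did not pass the threshold in edgeR, but some did in DESeq2. DESeq2 called Hoxa2 (adjusted p = 6.3e-06), Hoxc4 (2.1e-05), Hoxd4 (7.7e-05), Hoxc5 (0.0029) and Hoxb1 (0.027) beside Hoxd3, all lower on the right. Hoxa2 was at 13.7, 17.7, 29.2, 16.4 and 22.3 CPM on the left and 11.1, 12.0, 22.5, 8.03 and 11.1 CPM on the right, with a log2 right over left of -0.64 (SE 0.13, adjusted p = 0.051 by the same test). Hoxc4, a cervical gene, was at 17.2, 12.6, 12.3, 16.5 and 21 CPM on the left and 10.9, 6.17, 10.2, 7.91 and 16.4 CPM on the right (-0.66, SE 0.14, adjusted p = 0.060). Hoxc5 was at 6.2, 4.68, 5.75, 8.27 and 10.3 CPM on the left and 4.12, 1.51, 4.66, 2.21 and 9.60 CPM on the right (-0.86, SE 0.28, adjusted p = 0.189). Each of the 3 was lower on the right in 5 of 5 embryos, with overlap of the sides between embryos. Hoxa4 (-0.82, SE 0.35, adjusted p = 0.317) was lower on the right in 4 of 5 and Hoxb1 (-0.25, SE 0.10, adjusted p = 0.293) in 4 of 5, by the same edgeR test. Hoxa11, a gene of the limb and the uterus, had the value furthest the other way (1.38, SE 0.89, adjusted p = 0.538), on levels of at most 0.859 CPM.

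Markers of other cells moved with these genes. Of the 12 neural tube genes, 2 were lower on the right of inverted mutants (Pax6 -2.02 and Nkx6-1 -1.45, both called by the same test) and 10 had an unadjusted p under 0.05 (beside 15.1% of all genes), with a median of -1.38. The list summed to 113, 167, 231, 105 and 209 CPM on the left of 2_7, 4_6, 10_3, 18_2 and 32_2 and to 59.5, 66.6, 192, 54.1 and 50.3 CPM on the right, where 10_3 was again the one right side within the left range. Of the 10 genes of the somite list 1 was lower (Myf5) and 6 had an unadjusted p under 0.05 (median -0.77), and of the 9 caudal genes tested 1 was lower (Dll1) and 3 had one (median -0.56). Higher on the right were 7 of 8 heart muscle genes (median 1.09), 4 of 10 posterior second heart field genes (Osr1, Shox2, Tbx5 and Wnt2) and 1 of 6 anterior second heart field genes (Mef2c), beside 2.04% of all genes called in either direction. Of the 8 foregut genes 0 passed and 4 had an unadjusted p under 0.05 (median 0.30), and of the 5 endothelial genes 0 passed and 4 had one (median 0.26). Of the 6 neural crest and 4 blood genes 0 passed and 0 had one. The part of these cells in the Hox values was not tested, and in bulk tissue fewer cells of a type and less RNA per cell cannot be told apart.

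Across all 21 embryos, the ratio of Hoxd3 followed that of the neural tube list. Pearson's r between both log2 ratios was 0.89 and Spearman's rho 0.91 (permutation test, 100000 draws, p = 1e-05 for both, the smallest they can give, and 0.00075 and 0.001 after Benjamini-Hochberg adjustment over 600 relations). Without 10_1 and 32_2, which lie farthest out in the neural tube ratio, r was 0.88. Without 19_6 and 17_1, which lie farthest out in the Hoxd3 ratio, it was 0.94, a check added after the values were seen, and within the 11 rightward mutants it was also 0.88. The signs were the same in 19 of 21 embryos. Both values of an embryo come from the same pair of libraries.

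**Figure D3:**
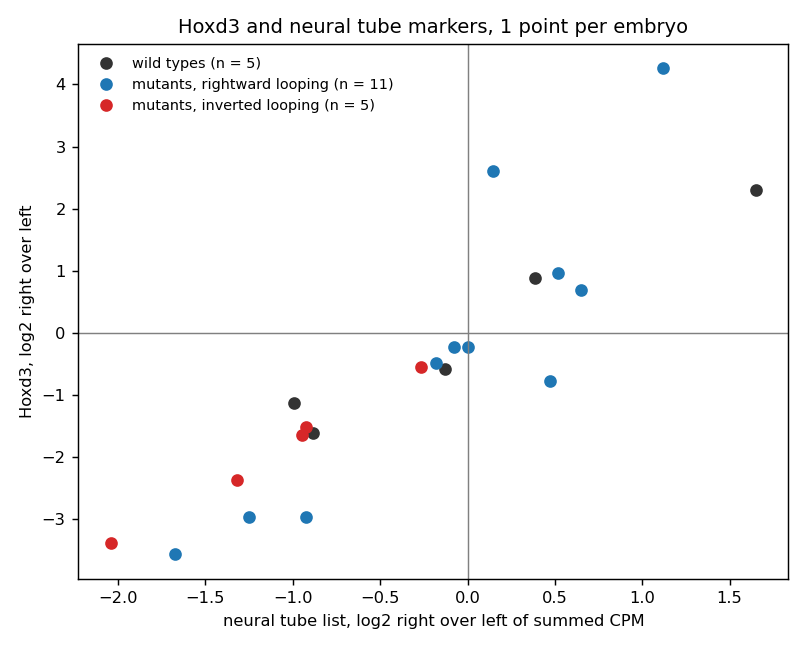
Log2 right over left of Hoxd3 against that of the neural tube list (12 genes, summed CPM), 1 point for each of 21 embryos, coloured by group. The points run from lower left to upper right, with the 5 inverted embryos below 0 on both axes, and 19 of 21 lie in the quadrants of equal sign.

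Of those 600 relations (30 members, 10 marker lists, ratios and mean levels), 33 passed by both coefficients. Hoxd3 ratios also followed the caudal list (r = 0.83, rho = 0.81) and ran against the posterior second heart field list (r = -0.74, rho = -0.80). Hoxa2 ratios ran against heart muscle (r = -0.87, rho = -0.89), the anterior second heart field (r = -0.87, rho = -0.82) and foregut endoderm (r = -0.86, rho = -0.87), and followed the neural tube (r = 0.77, rho = 0.76). Hoxa3 followed the somite list (r = 0.75). Hoxc4 (r = 0.75) and Hoxd4 (r = 0.69) followed the neural tube list. Each of these had an adjusted permutation p under 0.05 for r and for rho, and kept its sign without the 2 embryos farthest out in the list and within the 11 rightward mutants. Hoxb1, Hoxb5 and Hoxb6 were in none of the 33.

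The asymmetry itself did not differ between the groups past the threshold. For inverted minus rightward mutants, 0 of 30 members passed the interaction test (0.311% of all genes did), and 4 had an unadjusted p under 0.05 (13.3%, beside 10.5% of all genes and 3.84% on the lower side), all lower on the right in inverted than in rightward mutants. These were Hoxc5 (-1.12, SE 0.47), Hoxa5 (-0.79, SE 0.32), Hoxa2 (-0.57, SE 0.26) and Hoxb1 (-0.37, SE 0.14), with adjusted p between 0.348 and 0.435 by edgeR's quasi-likelihood test. The largest estimates were those of Hoxa7 (-1.77, SE 1.52), Hoxa11 (1.66, SE 1.29), Hoxb9 (-1.66, SE 1.55), Hoxd4 (-1.62, SE 1.03) and Hoxd3 (-1.58, SE 0.98). Each of these lay within 2 SE of 0, so that a difference of asymmetry for Hoxd3 was not shown, and DESeq2 called 0 members. In this contrast the marker lists had medians of -1.28 (neural tube, 1 of 12 genes at an unadjusted p under 0.05), -0.96 (somites, 5 of 10) and 1.12 (heart muscle, 7 of 8). The other lists lay between -0.32 and 0.54, with 0 genes called in any, and the part of these cells was not tested. For rightward mutants minus wild types, 0 of 30 passed (0% of all genes did) and 1 had an unadjusted p under 0.05 (3.33%, beside 3.04%), Hoxd8 at 1.66 (SE 0.56), followed in size by Hoxd9 (1.49, SE 1.08), Hoxc6 (1.10, SE 1.05), Hoxb8 (0.97, SE 0.83) and Hoxb9 (0.76, SE 1.5, and -0.42 without wild type 17_7). DESeq2 called 0 here as well.

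Between groups within a side, the largest values were all at the 5' end of HoxA and HoxD, and their size changed with embryo 15_5. In the left heart field, 0 of 27 members passed for inverted over rightward mutants (0.0121% of all genes did), and 10 had an unadjusted p under 0.05 (37.0%, beside 7.89%). Hoxa10 was at -4.16 (SE 1.25) and Hoxa11 at -4.30 (SE 1.33), each at adjusted p = 0.428 in edgeR's fit with sex as a covariate, and Hoxd10 (-3.69), Hoxd11 (-2.91) and Hoxd9 (-2.57) followed. Without embryo 15_5, Hoxa10 was at -2.51, Hoxa11 at -2.39, Hoxd10 at -1.85, Hoxd11 at -1.27 and Hoxd9 at -0.83. DESeq2, on all embryos, called Hoxa10 and Hoxa11 here and 0 members in the other 3 comparisons of levels. The 5 of those 10 with positive values, Hoxd3 (1.73, SE 0.64), Hoxa4 (0.89), Hoxa5 (0.80), Hoxc5 (0.80) and Hoxa2 (0.42), moved little without 15_5 (1.91, 0.85, 0.74, 0.79 and 0.43). In the same comparison the marker lists had medians of 1.28 (neural tube), 0.63 (somites), -0.56 (heart muscle) and -0.27 (foregut), and the others lay between -0.33 and 0.44, with 0 genes called. The part of these cells was not tested.

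The same genes led the other comparisons. For rightward mutants over wild types on the left, 0 of 27 passed (0.0242% of all genes did), 6 had an unadjusted p under 0.05 (22.2%, beside 5.02%), and Hoxd10 (2.75), Hoxa10 (2.65), Hoxa11 (2.57), Hoxd11 (2.57) and Hoxd9 (1.91) became 0.72, 0.60, 0.52, 0.78 and -0.15 without 15_5. Wild type 17_7, which had the highest wild-type Hoxa10, Hoxd9 and Hoxd10 on the left, moved them the other way, to 3.45, 3.75, 3.19, 4.51 and 3.06 without it. On the right, 0 of 28 members passed for inverted over rightward mutants (0.00805% of all genes did), 5 had an unadjusted p under 0.05 (17.9%, beside 4.26%), and Hoxd10 (-3.70), Hoxa10 (-3.39), Hoxa11 (-3.19), Hoxd11 (-3.14) and Hoxd9 (-2.92) became -1.24, -1.60, -1.75, -1.81 and -1.28. For rightward mutants over wild types on the right, 0 of 28 passed (0.0121% of all genes did), 8 had an unadjusted p under 0.05 (28.6%, beside 3.28%), and Hoxd10 (4.33), Hoxd9 (3.51), Hoxa10 (3.38), Hoxa11 (2.72) and Hoxd11 (2.65) became 1.62, 1.67, 1.45, 1.17 and 1.16. Hoxb6 (-0.69, SE 0.31) and Hoxb8 (-0.99, SE 0.47), lower in rightward mutants than in wild types on the left, were at -0.74 and -1.06 without 15_5, and the smallest adjusted p of a member in these comparisons, over all embryos by edgeR, was 0.428. Since rightward mutants serve in all 4 comparisons, the comparisons are not independent.

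Embryo 15_5 stood apart on both sides for the 5' genes of HoxA and HoxD. Hoxa10, known from the uterus and the posterior trunk, was at 90.3 CPM on its left and 115 CPM on its right (3957 and 4760 counts), where the other 40 libraries had a median of 1.04 and a highest value of 13.4 CPM, on the right of rightward mutant 23_3. Hoxd10 was at 15.0 and 24.8 CPM (highest other 1.79) and Hoxa11 at 22.7 and 18.1 CPM (highest other 3.68). Hoxa9 was at 10.3 and 11.9 (1.87), Hoxd9 at 6.87 and 6.52 (0.901), Hoxd8 at 2.99 and 4.43 (0.575), Hoxd11 at 2.85 and 3.56 (0.657) and Hoxb9 at 0.547 and 1.01 CPM (0.257). The 2 sides of 15_5 were within a factor of 2 of each other and each above all other libraries for these 8 genes. The antisense transcript Hoxa11os, whose exons overlap Hoxa11, was at 17.0 and 18.2 CPM (highest other 1.67). Hoxb8, Hoxc6 and Hoxc8 were within the range of the other libraries, Hoxc9 had no count on either side, and the caudal list, at 35.4 and 13.9 CPM, was also within the range (8.4 to 60.9).

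**Figure D4:**
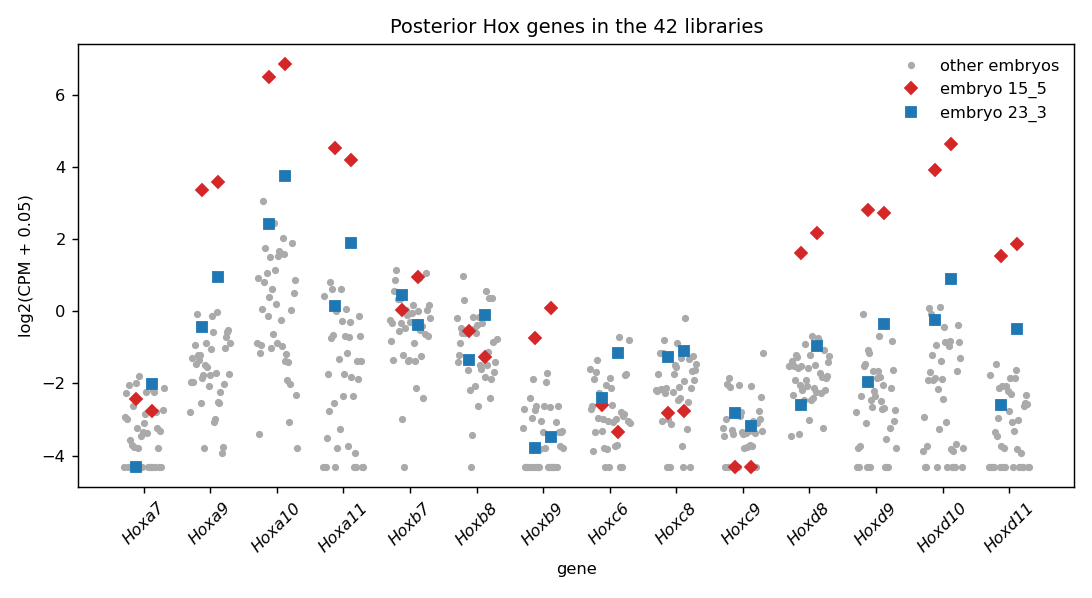
Log2(CPM + 0.05) of 14 Hox genes of paralogues 6 to 11 in 42 libraries, with both sides of embryo 15_5 as red diamonds and of 23_3 as blue squares. The diamonds stand above all other libraries for Hoxa9, Hoxa10, Hoxa11, Hoxd8, Hoxd9, Hoxd10, Hoxd11 and Hoxb9, and lie among them for Hoxb8 and Hoxc8.

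Of 7 genes of the uterine decidua, a list put together after these values were seen, 5 were above all other libraries on both sides of 15_5. The 7 summed to 533 and 645 CPM on the left and right of 15_5, beside a median of 40.7 and a range of 6.76 to 182 CPM in the other 40 libraries. Tdo2, an enzyme abundant in the decidua, was at 224 and 295 CPM (highest other 42.1), and Cyp11a1, which begins steroid synthesis, at 128 and 134 CPM (highest other 34.3). Aoc1 was at 70.4 and 87.7 CPM (14.2), the oestrogen receptor Esr1 at 27.9 and 39.1 CPM (5.15) and the progesterone receptor Pgr at 13.5 and 21 CPM (5.45). The other two are prolactin family genes and did not stand apart: Prl8a2 was at 68.4 and 68.0 CPM (highest other 113, on the right of 10_3) and Prl3c1 at 0.205 and 0.144 CPM (0.859, in the same library). Over the 21 embryos, the mean level of Hoxa10 and that of the list had r = 0.96 and rho = 0.94 (r = 0.94 without 15_5), as a description over libraries that share both values. Hoxd10 (r = 0.94), Hoxd11 (0.91), Hoxa11 (0.90), Hoxd9 (0.87) and Hoxa9 (0.74) also followed the list, with r of 0.89, 0.85, 0.84, 0.78 and 0.53 without 15_5. The right over left ratio of Hoxa10 had r = 0.88 and the sign of the list's ratio in 19 of 21 embryos. Between groups on the left, the 7 genes had a median log2 value of -1.87 for inverted over rightward mutants and 1.34 for rightward mutants over wild types. On the right the medians were -1.07 and 1.55. In these 4 comparisons 0 genes passed, and 3, 3, 2 and 2 had an unadjusted p under 0.05 (beside 7.89%, 5.02%, 4.26% and 3.28% of all genes). The part of maternal tissue in these values was not tested.

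**Figure D5:**
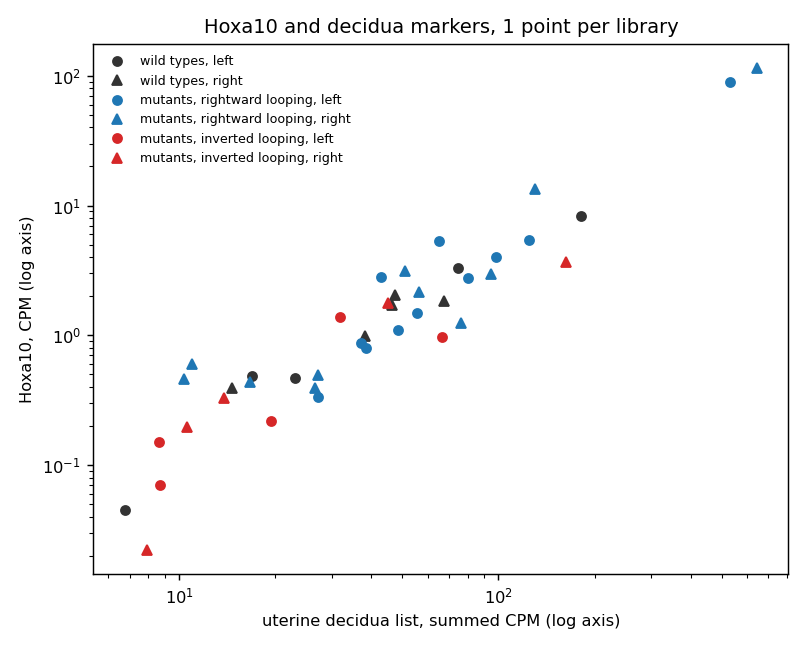
Hoxa10 CPM against the summed CPM of the 7 decidua genes in 42 libraries (both axes log), coloured by group. Both sides of embryo 15_5 lie at the upper right, and the other libraries follow the same course from 0.0222 CPM of Hoxa10 up to the 13.4 CPM of 23_3.

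The groups overlapped in Hoxa10 on both sides. In wild types it ran from 0.0449 to 8.28 CPM on the left (median 0.490) and from 0.395 to 2.03 CPM on the right (median 1.71). In rightward mutants other than 15_5 it reached at most 5.43 CPM on the left and, on the right, 13.4 CPM. In inverted mutants it ran from 0.0698 to 1.38 CPM on the left (median 0.218) and from 0.0222 to 3.66 CPM on the right (median 0.328).

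Few other genes of the pathway passed the test. Of 9 TALE cofactors, 0 passed in any of the 9 comparisons, and Meis1 (162 to 329 CPM) and Meis2 (207 to 298 CPM) were abundant in every library. Of the 8 caudal and rhombomere regulators tested, 0 passed. In inverted mutants, 2 of these cofactors and 3 of these regulators had an unadjusted p under 0.05 between the sides. Of 14 retinoic acid genes, 5 had one there, and 1 passed in that comparison (beside 2.04% of all genes) and 0 in the others: Crabp2, which binds retinoic acid in the cell, was lower on the right of inverted mutants (-0.82, adjusted p = 0.019 by edgeR's quasi-likelihood test), at 225, 320, 387, 285 and 436 CPM on the left of 2_7, 4_6, 10_3, 18_2 and 32_2 and at 146, 222, 267, 140 and 162 CPM on the right. It was lower on the right in 5 of 5 embryos, with overlap between embryos. Aldh1a2, which makes retinoic acid, ranged from 25.5 CPM on the right of 2_2 to 154 CPM, and Cyp26a1, which degrades it, from 27.9 to 61.2 CPM. Of the 8 non-coding Hox cluster transcripts tested, 0 passed in any comparison, with 5 at an unadjusted p under 0.05 (beside 15.1% of all genes) and a median of -0.55 between the sides of inverted mutants.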

How the data were processed

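Poly-A RNA of 42 heart field libraries was sequenced with an unstranded low-input kit (NovaSeq). The authors assessed reads (FastQC, Picard), removed duplicates, used STAR on GRCm39 for alignment and featureCounts (Subread 2.0.6) for counting, and they deposited raw counts per gene for 56953 genes; 56310 identifiers matched GENCODE. The handling of strand and of reads on several genes is not given in the sources used here. CPM use TMM-scaled totals, and levels between genes are CPM per kb of merged exons.

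Tests were edgeR's quasi-likelihood test (4.0.16, R 4.3.3) on counts filtered by filterByExpr (min.prop 0.2, large.n 50, min.total.count 10, min.count 5), with Benjamini-Hochberg adjustment over all genes kept and a threshold of 0.05. Right over left held the embryo as a block, since both sides come from one embryo; levels within a side held group and sex. Log2 ratios of single embryos and exact sign-flip tests used a prior count of 2, relations a pseudocount of 0.5. The tests were checked on simulated data. Alternatives were DESeq2 1.42.0, its size factors, other filters, males alone, all libraries in one fit, no block and each embryo left out. Separate embryos are replicates; no batch is labelled.

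Named were the members past the threshold, the 5 largest changes per comparison, the highest member of each paralogue, and some of the members with an unadjusted p under 0.05, the last outside the rule and chosen after their values were seen, as were the decidua list and the set of a wild type against inverted contrast. The members and lists were chosen with earlier results of these data known. Start regions came from RefSeq (GRCm38.p6). Values of 2 genes are not reported here.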

Additional observations from a re-analysis of the deposited data

Results flagged for a closer look

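Hoxb2, a hindbrain gene with 29.7% of its exon bases shared with Hoxb3os, had a log2 right over left of -1.28 in wild type 10_1, while the other 4 wild types lay between -0.13 and 0.28. The gap was past Dixon's limit for 5 values. It was 1 of 48 ratios examined in the groups of 5 embryos, and chance alone flags about 1 in 20. Hoxb2 was at 27.2 CPM on the left against 11.1 on the right of this embryo, whose right side had the highest Hoxd3 level of all libraries.

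Hoxc5 had opposite signs in wild types and inverted mutants. It was higher on the right in 5 of 5 wild types and in 0 of 5 inverted mutants, with mean log2 ratios of 0.50 and -0.89 and a difference of 1.39 (exact permutation test over 252 splits, two-sided, p = 0.0079, the smallest it can give). Benjamini-Hochberg adjustment over the 23 genes compared gave 0.183. The contrast was chosen after the values were seen, and the groups differ in genotype as well as in looping.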

How the results depend on the processing

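Of 259 main values recomputed under the alternatives, 244 kept their verdict. For counts this meant an equal number, and for the share of paralogues 1 to 4 a move below its SD of 7.33 (2.71 without 15_5). Some could not change. The shares with library size alone are the same by construction, and the sign-flip count cannot move when a wild type or inverted mutant is left out, since so few embryos cannot reach the threshold. The Hox genes called between the sides of inverted mutants numbered 1 as reported and 6 with DESeq2 (Hoxa2, Hoxb1, Hoxc4, Hoxc5, Hoxd3 and Hoxd4). They numbered 2 with DESeq2's size factors, 4 with no filter on low counts, 2 with at least 10 counts in every library, 0 in males alone, 0 in a fit of all 42 libraries and 0 to 3 when single embryos were left out. Without the embryo block the count was 1, with Hoxd4 (log2 -2.04, adjusted p = 0.039) in place of Hoxd3 (-1.73, adjusted p = 0.093), and the block changed no other Hox call. DESeq2 called Hoxa10 and Hoxa11 in the left heart field of inverted over rightward mutants, 2 where 0 were called in the main test. Single Hox genes past an unadjusted exact sign-flip p of 0.05 numbered 0, and 0 to 2 with single embryos left out (2 without 2_2, 1 without 19_6 and 2 without 23_3). Of 1526 further values (single genes and the shares of paralogues 5 to 8 and 9 to 13), 1501 kept theirs and 7 lost and 15 gained a call. The share of paralogues 5 to 8 moved, to 5.73% without members whose exons overlap. The 2 values that reversed were under the threshold: Hoxb9 in rightward mutants minus wild types (-0.42 without 17_7, up to 1.70 without 22_4) and Hoxd9 in rightward mutants over wild types on the left (-0.15 without 15_5, up to 3.06 without 17_7). The cause was not tested. Genes of paralogues 9 to 13 rest on few counts in most libraries, which limits their ratios.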
